A study of Rattus norvegicus with 9 samples.

Results

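Blood carries miRNAs of its own into any tissue sample, and 5 of them were followed through 9 small RNA libraries of rat cornea. They were rno-miR-451-5p, rno-miR-144-3p, rno-miR-144-5p and rno-miR-486, which are miRNAs of red blood cells, and rno-miR-122-5p, a liver miRNA that circulates in plasma. They were chosen by name from the deposited table, and all 5 were found among its 765 rows. There were 3 libraries of allograft cornea, 3 of isograft cornea and 3 of normal cornea, all labelled as Wistar rats of 6 weeks of age. In an isograft donor and recipient are genetically matched, and in an allograft they differ, although the labels give the same strain for every sample. The labels state neither donor strain, time after surgery nor perfusion. Each library carries a number, 12, 34 or 56, from its title, whose meaning the labels do not give, and how many corneas went into a library is not stated. Whether the 3 libraries of a group stand for separate animals is not said either, so a p-value reflects sample-to-sample spread alone, and part or all of that may be technical.

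Red blood cells of mammals lose their nucleus but keep the miRNAs made in their precursors. miR-144 and miR-451 are cut from a shared transcript that the erythroid factor GATA1 switches on, and miR-451 is unusual in being cut by Argonaute 2 instead of Dicer. miR-486 lies within Ank1, the gene of an ankyrin of the red cell membrane, and is also made in striated muscle. miR-122 is the dominant miRNA of hepatocytes, where it supports lipid metabolism, and its plasma level is used as a marker of liver injury. The central cornea has no blood vessels, while the limbus at its rim does, and vessels can grow into a grafted cornea.

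The mature sequences of 4 of the 5 miRNAs, as given by RefSeq on the build GRCr8, are shown so that the arms can be told apart. Capitals mark the seed, bases 2 to 8 from the 5′ end, which pairs with target transcripts. Within the 693 mature rat miRNAs of that table, 0 others shared any of these 4 seeds, so the 4 belong to 4 different seed groups.
miR-451-5p: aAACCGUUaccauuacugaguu
miR-144-3p: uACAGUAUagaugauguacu
miR-144-5p: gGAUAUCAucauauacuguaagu
miR-122-5p: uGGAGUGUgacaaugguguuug
The hairpins of miR-451 and miR-144 are shown because the results set these neighbours against each other. They lie on the plus strand at chr10:63459569-63459640 and chr10:63459397-63459479 (GRCr8), 89 bases apart. Capitals mark the mature miR-451-5p, at positions 17 to 38 of its 72-base hairpin, and the mature miR-144-3p, at positions 50 to 69 of 83.
Mir451a: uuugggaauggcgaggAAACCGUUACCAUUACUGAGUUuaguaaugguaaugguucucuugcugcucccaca
Mir144: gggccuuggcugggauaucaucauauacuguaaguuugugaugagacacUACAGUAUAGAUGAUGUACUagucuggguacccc
The miR-122 hairpin lies on the plus strand at chr18:61028817-61028901 of the same build.

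The table gives RPM, read counts scaled to a library total, and those totals ran from 11001459 to 12153889 reads. The listed miRNAs held between 26.4% of those reads, in allograft 34, and 65.6%, in normal 34, so the share of other reads in a library also moves its RPM values. Allograft 34 stood apart in that share and in several values given here, which are therefore also given without it. Corneal epithelial miRNAs were abundant in every library, and miR-184, miR-205, miR-203a-3p, miR-200b-3p and miR-204-5p together ran from 36626 to 89808 RPM in allografts, from 159138 to 193140 in isografts and from 270910 to 420194 in normal corneas. In bulk tissue fewer cells of a type and less RNA per cell cannot be told apart. The blood-borne miRNAs were minor. Over all 9 libraries 17314 reads were counted for miR-486, 5584 for miR-451-5p, 3848 for miR-122-5p, 46 for miR-144-5p and 28 for miR-144-3p. Of the 5, miR-486, miR-451-5p and miR-122-5p had at least 5 RPM in at least 3 libraries, so that 3 of 5 were among the 281 miRNAs tested. The 2 miR-144 arms were below that limit in all 9 libraries.

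The red cell miRNA miR-451-5p was high in all 3 normal corneas, in 1 isograft and in 1 allograft, and below every normal cornea in the other 4 grafts. It was at 3.82, 120.1 and 3.27 RPM in allografts 12, 34 and 56, and at 69.5, 3.00 and 5.91 RPM in isografts 12, 34 and 56. In normal corneas 12, 34 and 56 it was at 121, 31.9 and 141 RPM. Allograft 34 and isograft 12 were the high grafts, and allograft 34 stood between normal 34 and normal 12, so the groups overlapped. Counting error was small against these gaps, with 95% Poisson intervals of 114 to 127 RPM in allograft 34 and 2.29 to 4.53 in allograft 56. Within a group the highest library exceeded the lowest 36.7-fold in allografts, 23.2-fold in isografts and 4.44-fold in normal corneas. The order of the group means was isografts at 26.1 RPM ± 37.6, allografts at 42.4 ± 67.3 and normal corneas at 98.1 ± 58.3 (SD, n = 3 each), and neighbours in that order differed by less than their SD.

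miR-486, the other red cell miRNA tested, had its highest and its lowest values in grafts. It was at 15.3, 946 and 13.8 RPM in allografts 12, 34 and 56, and at 111, 10.4 and 21.9 RPM in isografts 12, 34 and 56. In normal corneas 12, 34 and 56 it was at 192, 50.2 and 201 RPM. The high grafts were again allograft 34 and isograft 12, and allograft 34 exceeded every normal cornea. The range within a group was 68.5-fold in allografts, 10.7-fold in isografts and 4.0-fold in normal corneas. Group means were 325 RPM ± 538 in allografts, 47.7 ± 54.9 in isografts and 148 ± 84.7 in normal corneas (SD, n = 3 each), and the order isograft, normal, allograft rests on allograft 34, since without it the allografts were at 15.3 and 13.8 RPM.

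The liver and plasma miRNA miR-122-5p followed the red cell miRNAs in part. It was at 1.18, 32.7 and 0.9995 RPM in allografts 12, 34 and 56, and at 75.0, 38.2 and 0.727 RPM in isografts 12, 34 and 56. In normal corneas 12, 34 and 56 it was at 59.4, 31.6 and 102 RPM. Allograft 34 and isograft 12 were high here too, but so was isograft 34, the library with the least miR-451-5p of all 9. Isograft 56 was lowest, with 8 reads. The order of the means was allografts at 11.6 RPM ± 18.3, isografts at 38.0 ± 37.2 and normal corneas at 64.3 ± 35.4 (SD, n = 3 each), and neighbours in that order differed by less than the larger SD of the pair.

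**Figure D1:**
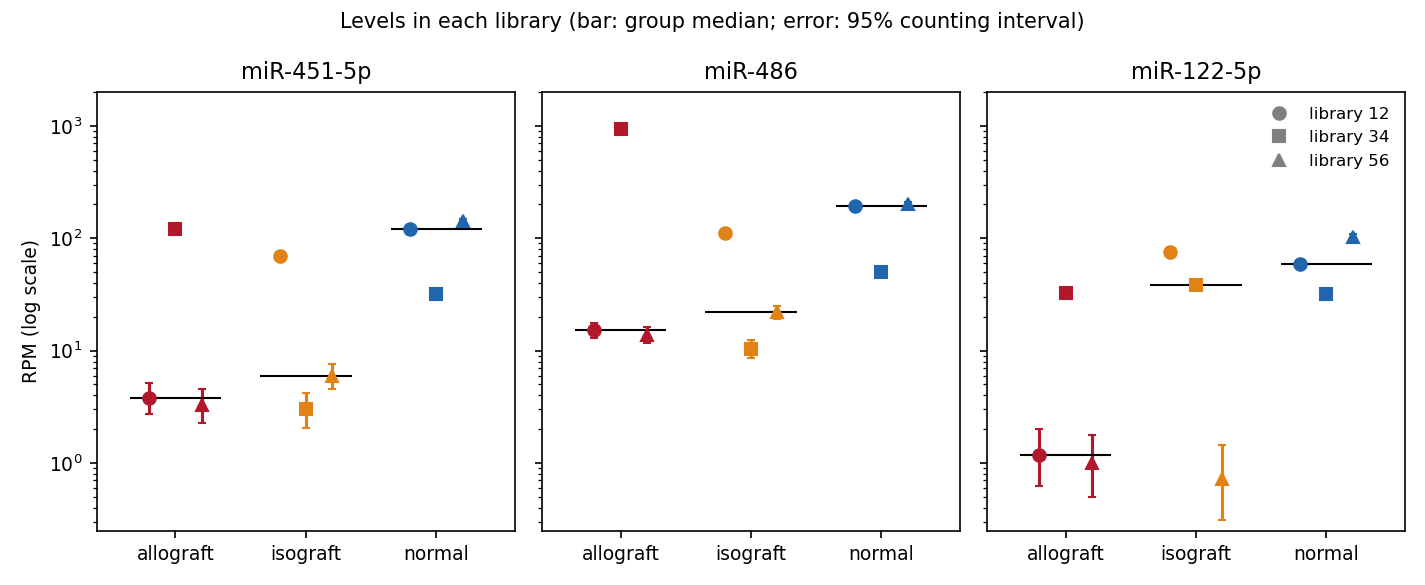
RPM (log scale) of miR-451-5p, miR-486 and miR-122-5p in each of the 9 libraries, with allografts, isografts and normal corneas from left to right, 95% Poisson intervals of the read count as error bars and a bar at each group median. Allograft 34 and isograft 12 stand near or above the normal corneas in each panel while most other grafts lie lower, and isograft 34 is low for miR-451-5p at 3.00 RPM but not for miR-122-5p at 38.2 RPM.

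These 3 miRNAs had the largest spread between libraries of a group among all 281 tested. On the log2(RPM + 1) scale the pooled SD within groups was 2.30 for miR-486, 2.20 for miR-122-5p and 2.14 for miR-451-5p, against a median of 0.45 over the 281. The next, miR-126a-5p of endothelial cells, had 0.96, and miR-497-5p had 0.89. The other miRNAs of the 10 largest were miR-503-5p, miR-106b-5p, miR-200a-3p, miR-31a-5p and miR-29a-3p, between 0.72 and 0.86. With allograft 34 and isograft 12 left out together the SD was 0.87 for miR-486, 0.87 for miR-451-5p and 1.70 for miR-122-5p, still the 3 largest, with miR-126a-5p next at 0.72.

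**Figure D2:**
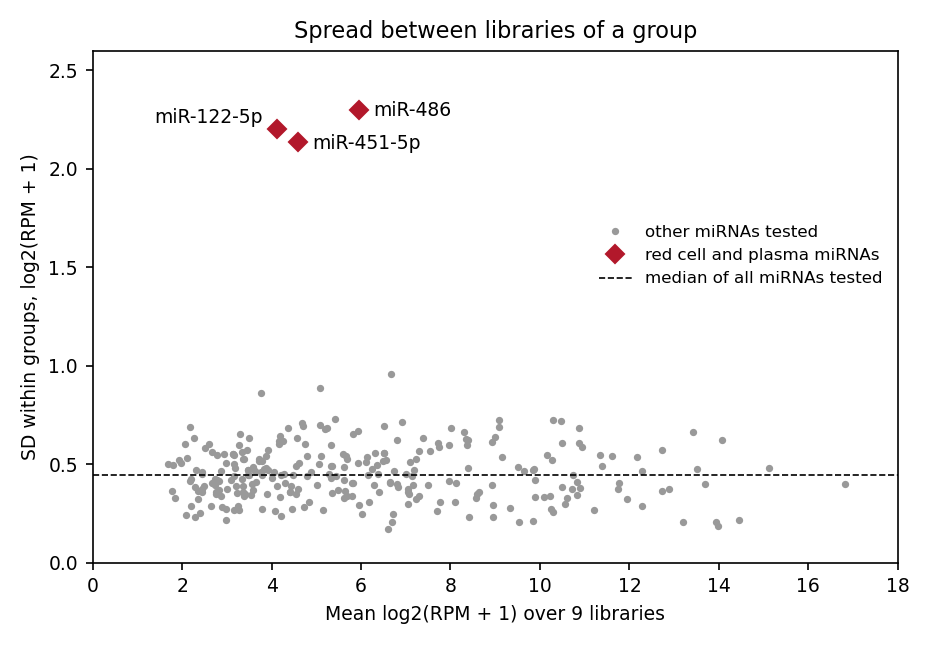
SD within groups against mean level, both on the log2(RPM + 1) scale, for the 281 miRNAs tested. The 3 red cell and plasma miRNAs lie between 2.14 and 2.30, while every other miRNA is at or below 0.96 and the dashed median is at 0.45.

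The red cell pair moved together between libraries of a group. Likeness was measured as the Pearson correlation of deviations from the group mean over the 9 libraries, which share group centring and carry 6 degrees of freedom, and is a description only. The miRNA most like miR-451-5p among 280 others was miR-486, at 0.98, followed by miR-122-5p at 0.73, miR-493-5p at 0.43, miR-133a-3p at 0.40 and miR-541-5p at 0.18. Those most like miR-486 were miR-451-5p, miR-122-5p at 0.70, the muscle miRNA miR-133a-3p at 0.58, miR-493-5p at 0.42 and miR-501-3p at 0.16. Those most like miR-122-5p were miR-451-5p, miR-486, miR-133a-3p at 0.38, miR-223-5p at 0.34 and miR-501-3p at 0.29. Outside these 3 miRNAs, then, the closest values were far below that of the red cell pair.

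Within that common movement the proportion of miR-486 to miR-451-5p was highest in the allografts. This ratio was chosen after the values were seen, so it is a description with no test, and because both counts come from the same library it does not depend on scaling. There were 4.0, 7.87 and 4.22 miR-486 reads per miR-451-5p read in allografts 12, 34 and 56, and 1.59, 3.45 and 3.71 in isografts 12, 34 and 56. Normal corneas 12, 34 and 56 had 1.59, 1.58 and 1.42. Every allograft was above every isograft and every normal cornea, although the 95% exact binomial intervals of allograft 12 (2.84 to 5.75) and isograft 56 (2.81 to 4.95) overlapped. Levels of 38.8% of all miRNAs tested also did not overlap between allografts and isografts, in either direction. Between allografts and normal corneas 60.1% did not, and no such share was computed for ratios. Isograft 12, one of the high grafts, was at the level of the normal corneas, with an interval of 1.46 to 1.74 against 1.48 to 1.70 in normal 12. The log2 ratio of allografts was higher by 1.74 than that of normal corneas, and by 1.43 without allograft 34. It was higher by 0.90 than that of isografts, but by only 0.20 without both allograft 34 and isograft 12.

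Allograft 34 stood apart in this ratio as well as in level. Its 10407 miR-486 reads against 1322 miR-451-5p reads gave a 95% exact binomial lower bound of 7.43, above the ratio of every other library. Normal 12 had a nearly equal miR-451-5p count, 1333 reads, with 2119 miR-486 reads.

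The ratio of miR-122-5p to miR-451-5p, also a description, was lower in every allograft than in every normal cornea. The isografts lay on both sides of both groups. It was 0.310, 0.272 and 0.306 in allografts 12, 34 and 56, and 1.08, 12.7 and 0.123 in isografts 12, 34 and 56. Normal corneas 12, 34 and 56 had 0.491, 0.991 and 0.721. The allografts lay close together despite a 36.7-fold range of miR-451-5p, while the isografts spread over both extremes. However, allografts 12 and 56 had only 13 and 11 miR-122-5p reads, against 42 and 36 of miR-451-5p. Their 95% exact binomial intervals, 0.152 to 0.588 and 0.140 to 0.614, reached past the ratio of normal 12. Such intervals are too wide to show that the proportion was constant.

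**Figure D3:**
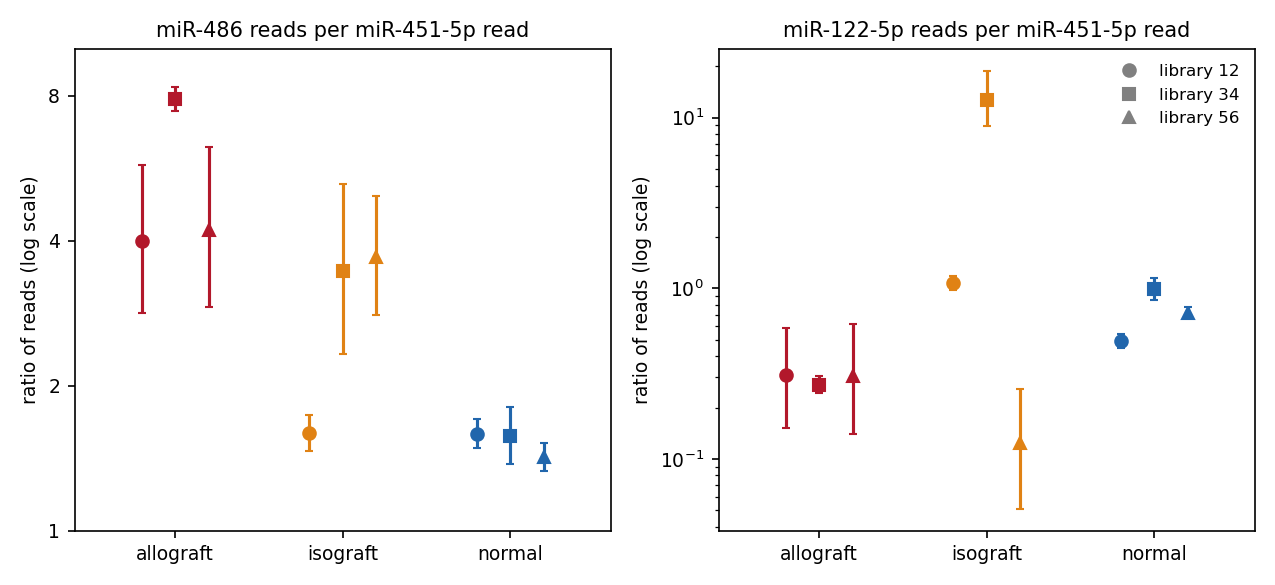
Reads of miR-486 (left) and miR-122-5p (right) per miR-451-5p read in each library, on log scales, with 95% exact binomial intervals, for allografts, isografts and normal corneas from left to right. On the left the allografts lie at 4.0 to 7.87 and the normal corneas at 1.42 to 1.59, and on the right the isografts run from 0.123 to 12.7.

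The miR-144 arms, cut from the same transcript as miR-451, were near the limit of detection in every library. Summed over each group, miR-144-5p had 28 reads in allografts, 16 in isografts and 2 in normal corneas, and miR-144-3p had 16, 9 and 3, while miR-451-5p was high in every normal cornea. miR-144-5p had 6, 11 and 11 reads in allografts 12, 34 and 56, and 0, 4 and 12 in isografts 12, 34 and 56. It had 0, 1 and 1 reads in normal corneas 12, 34 and 56, so the allografts did not overlap the normal corneas, as was so, with allografts higher, for 24.3% of the 606 miRNAs with a read. miR-144-3p, the arm usually taken as the active strand, had 1, 10 and 5 reads in the allografts, 4, 3 and 2 in the isografts, and 0, 2 and 1 in the normal corneas, with overlap between groups. A count of 3 reads, taken here as the floor, corresponds to between 0.247 and 0.273 RPM, and every normal cornea was below it for both arms.

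Libraries with like miR-451-5p counts could differ in miR-144 reads. Normal 12 had 1333 miR-451-5p reads and 0 of either miR-144 arm, normal 34 had 351 with 2 of miR-144-3p and 1 of miR-144-5p, and normal 56 had 1557 with 1 of each. Allograft 34, with 1322 miR-451-5p reads, had 10 of miR-144-3p and 11 of miR-144-5p. Allograft 56, with 36 miR-451-5p reads, had 5 and 11. At nearly equal miR-451-5p counts, the share of miR-144-5p in the sum of both was 0.825% in allograft 34 (95% exact binomial interval 0.413% to 1.47%), against 0% in normal 12 (up to 0.276%). The interval of normal 34 reached 1.57% and overlapped that of allograft 34, while that of normal 56 reached 0.357% and did not. The share of miR-144-3p was 0.751% in allograft 34 (0.361% to 1.38%). In normal corneas 12, 34 and 56 it was 0%, 0.567% (0.0687% to 2.03%) and 0.0642%.

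Both arms were left out of the fit by its filter on low values. In the fit without a filter, in which limma called 30.7% of 606 miRNAs in allografts against normal corneas, miR-144-5p was higher by 0.79 on the log2(RPM + 1) scale (SE 0.20, adjusted p = 0.0074, Benjamini-Hochberg), and miR-144-3p stood at 0.41 (SE 0.15, adjusted p = 0.0551). In isografts against normal corneas, where 11.6% were called, they stood at 0.42 (adjusted p = 0.265) and 0.21 (adjusted p = 0.521), and in allografts against isografts, where 20.1% were called, at 0.37 (adjusted p = 0.224) and 0.20 (adjusted p = 0.406), miR-144-5p first in each pair. These values understate the change of such low miRNAs. The exact permutation test over the 3 groups gave a two-sided p of 0.1 for miR-144-5p and 0.196 for miR-144-3p. Among the other arms of these hairpins, miR-451-3p had 0 reads in all 9 libraries, with 95% Poisson upper limits between 0.304 and 0.335 RPM. miR-122-3p had 1 read, in isograft 34.

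**Figure D4:**
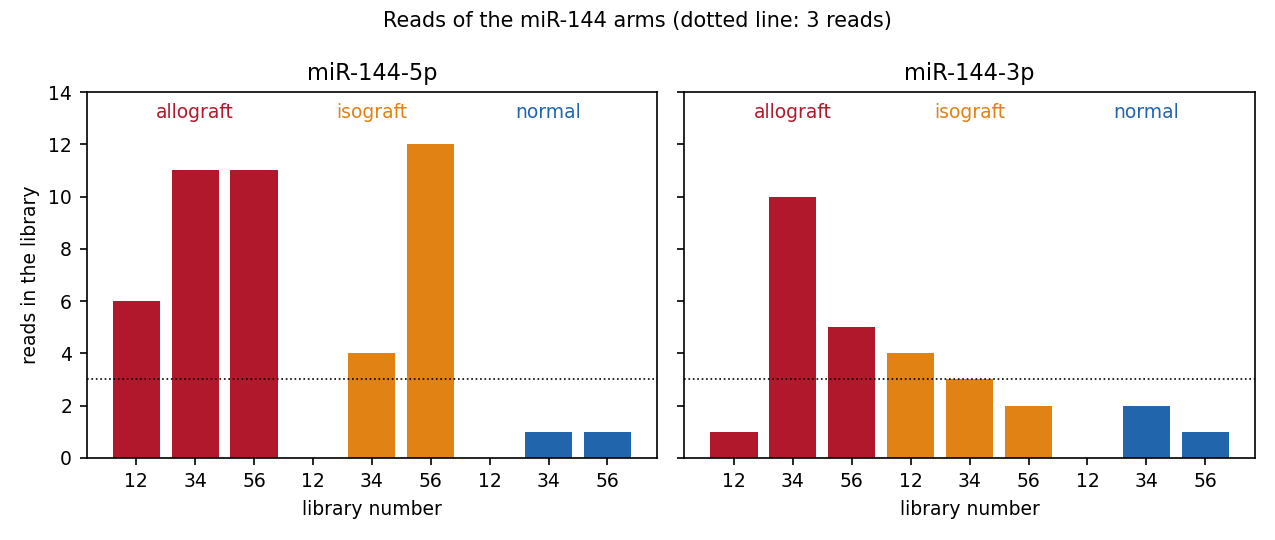
Reads of miR-144-5p (left) and miR-144-3p (right) in each library, ordered as allografts, isografts and normal corneas, with a dotted line at 3 reads. The allografts hold 6 to 11 reads of miR-144-5p and the normal corneas 0 or 1.

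Allografts were set against normal corneas to ask what differed where the donor was not matched. Of the 3 blood-borne miRNAs tested, 2 fell and 0 rose (limma on log2(RPM + 1), with Benjamini-Hochberg adjusted p over all 281), where 24.2% of all miRNAs tested fell, 23.1% rose and 47.3% changed. miR-122-5p had a log2 fold change of -3.48 (SE 0.90, adjusted p = 0.0022) and miR-451-5p one of -2.61 (SE 0.88, adjusted p = 0.016), each lower in 2 of 3 allografts than in every normal cornea. miR-486 had -1.04 (SE 0.94, adjusted p = 0.373). None of the 3 was free of overlap between the groups, where 60.1% of all miRNAs tested were.

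Isografts were set against normal corneas to ask what differed where the donor was matched. Here 1 of the 3 fell, where 4.63% of all miRNAs tested fell, 16.7% rose and 21.4% changed. It was miR-451-5p, with a log2 fold change of -2.73 (SE 0.88, adjusted p = 0.025), lower in 2 of 3 isografts than in every normal cornea. miR-486 had -2.04 (SE 0.94, adjusted p = 0.149), also lower in 2 of 3, and miR-122-5p had -1.77 (SE 0.90, adjusted p = 0.196), lower in 1 of 3. Both comparisons share the normal corneas. All 3 miRNAs overlapped between these groups, where 33.5% of all miRNAs tested did not.

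Between allografts and isografts 0 of the 3 passed in limma, adjusted or at an unadjusted p under 0.05. There limma called 34.5% of all miRNAs tested, 13.5% higher and 21% lower. In edgeR 0 of the 3 passed, where 163 of all miRNAs tested did. DESeq2 called 171 of all miRNAs tested. It gave no p-value for miR-451-5p and miR-486, and miR-122-5p did not pass in it (adjusted p = 0.455). Other limma settings did call some, among them RPM without miR-184 for miR-122-5p (-1.84, adjusted p = 0.000936). The log2 fold changes were 0.12 (SE 0.88, adjusted p = 0.930) for miR-451-5p, 0.99 (SE 0.94, adjusted p = 0.420) for miR-486 and -1.71 (SE 0.90, adjusted p = 0.139) for miR-122-5p. With SEs of this size, intervals of these differences are wide and do not show that the groups are alike. All 3 overlapped between the groups, where 38.8% of all miRNAs tested did not.

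The calls against normal corneas rested on a spread borrowed from other miRNAs. The fit drew the SE of these differences toward that of the other miRNAs, to 0.88 for miR-451-5p, 0.94 for miR-486 and 0.90 for miR-122-5p, while their own spread with 6 degrees of freedom gave 1.74, 1.88 and 1.80. With robust variance estimates, which let such miRNAs keep their spread, 0 of the 3 passed in any of the 3 comparisons. Over all miRNAs tested these estimates called 136 in allografts and 62 in isografts, each against normal corneas, and 106 between allografts and isografts. On recovered reads edgeR called 0 of the 3 as well, where it called 193, 114 and 163 of all miRNAs tested in the same order. Under limma's robust estimates the adjusted p was 0.262 for miR-451-5p and 0.153 for miR-122-5p in allografts, and 0.392 for miR-451-5p in isografts, against normal corneas. In limma with the median of ratios the adjusted p in allografts against normal corneas was 0.168 for miR-451-5p and 0.0691 for miR-122-5p, and scaled to the listed miRNAs it was 0.290 and 0.131, with log2 fold changes of -1.93 and -2.84. The exact permutation test over the 3 groups gave two-sided p-values of 0.254 for miR-451-5p, 0.593 for miR-486 and 0.218 for miR-122-5p, and 3 libraries against 3 cannot go below 0.1.

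Single libraries decided the sizes. In limma fits with 1 library left out, miR-451-5p in allografts against normal corneas had a log2 fold change of -4.19 without allograft 34, and its call was lost without allograft 56 (-1.78, adjusted p = 0.105) or normal 56 (-2.22, adjusted p = 0.154). In isografts it was -3.98 without isograft 12, and the call was lost without isograft 34 (-1.91, adjusted p = 0.0810), normal 12 (-2.45, adjusted p = 0.0640) or normal 56 (-2.34, adjusted p = 0.245). For miR-122-5p in allografts it was -4.81 without allograft 34 and lost its call without normal 56 (-3.07, adjusted p = 0.0565). miR-486 in allografts had -3.02 without allograft 34 and -0.02 without allograft 56, and it passed without allograft 34 (adjusted p = 0.00364), isograft 12 (0.00406) or isograft 56 (0.0399). In isografts it ran from -2.97 without isograft 12 to -1.32 without isograft 34, and it passed without allograft 12, allograft 34, isograft 12 or isograft 56. miR-122-5p in isografts ran from -2.84 without isograft 12 to -0.11 without isograft 56, and it passed without allograft 12, isograft 12 or isograft 34. A library outside the 2 groups compared moves such a call through the SE, which also draws on the spread of other miRNAs. Without isograft 12 the SD within groups of miR-486 stayed at 2.30. Its SE in allografts against normal corneas nevertheless went from 0.94 to 0.33. The passes without isograft 12, here and between allografts and isografts, thus leaned on the spread of other miRNAs.

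Between allografts and isografts single libraries also turned the direction. miR-451-5p had 1.37 without isograft 12 (adjusted p = 0.00122), and -1.46, -0.70 and -0.31 without allograft 34, isograft 34 and isograft 56, with no call in these 3. miR-486 passed without isograft 12 (1.92) or allograft 12 (1.95) and had -0.99 without allograft 34. miR-122-5p passed at -3.37 without isograft 56 and at -3.05 without allograft 34 (adjusted p = 0.0451).

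With allograft 34 and isograft 12 left out together, all 3 were lower in both graft groups. Against normal corneas the log2 fold changes in allografts were -4.19 for miR-451-5p, -3.02 for miR-486 and -4.81 for miR-122-5p. In isografts they were -3.98, -2.97 and -2.84 in the same order of miRNAs. These 2 libraries were known to be high in miR-451-5p when they were left out, so the values are a description with no test of their own.

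**Figure D5:**
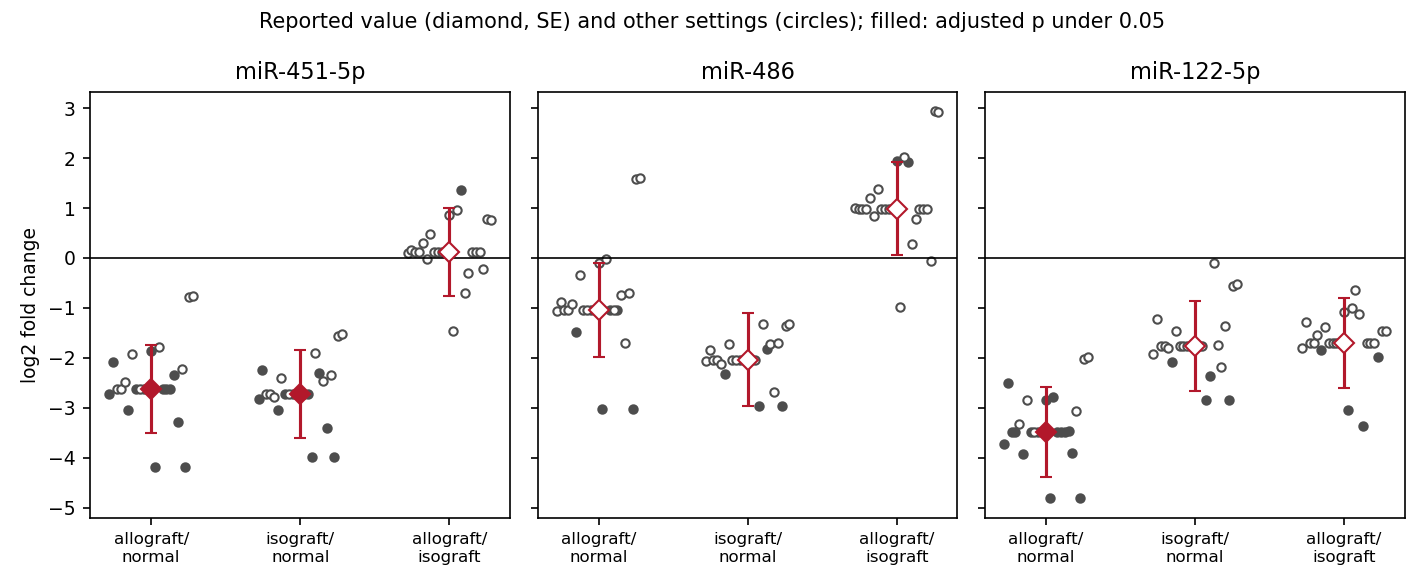
Log2 fold changes of the 3 blood-borne miRNAs in the 3 comparisons, with the reported value and its SE as a diamond and each of 23 other settings as a circle, filled where the adjusted p was under 0.05 and open where it was not or none was given. miR-451-5p and miR-122-5p stay below 0 against normal corneas in every setting shown, while miR-486 in allografts runs from -3.02 to 1.60.

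Other miRNAs abundant in red blood cells were taken as a list of 11, all tested: miR-16-5p, miR-15b-5p, miR-25-3p, miR-92a-3p, miR-93-5p, miR-106b-5p, miR-185-5p, miR-363-3p, miR-20b-5p, miR-107-3p and miR-103-3p. In allografts against normal corneas 3 rose and 0 fell, with a median log2 fold change of 0.64 beside -0.14 over all miRNAs tested. A share of 23.1% of all miRNAs rose there, so 3 of 11 is near the background. The count depended on scaling, with 10 higher and 0 lower when scaled to the listed miRNAs and 2 higher and 1 lower when miR-184 was left out of the total. The 3 were miR-363-3p at 5.58 (SE 0.40), miR-20b-5p at 4.18 (SE 0.39) and miR-16-5p at 1.04 (SE 0.40, limma adjusted p = 0.0351), while miR-185-5p stood lowest at -0.78 (SE 0.38, adjusted p = 0.0893). In isografts, where 16.7% of all miRNAs rose, 1 of 11 did so, miR-363-3p at 1.24 (SE 0.40), with a median of -0.02 beside 0.05, and in allografts against isografts, where 13.5% rose, 4 of 11 did so. Summed, the 11 were at 4625, 4158 and 7396 RPM in allografts 12, 34 and 56, at 2617, 4959 and 4535 RPM in isografts 12, 34 and 56, and at 3073, 4135 and 3754 RPM in normal corneas 12, 34 and 56. Allograft 34 and isograft 12, the grafts richest in miR-451-5p, had the lowest RPM sums of their groups. They also had the lowest share of listed miRNAs in their groups, 26.4% and 36.8% of reads, which lowers RPM values. The order of these sums was not tested under other scalings. The 11 miRNAs are made in many cell types, and near-identical members such as miR-103 and miR-107 can share reads.

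White blood cell and endothelial miRNAs were higher in grafts. All 7 white blood cell miRNAs rose in allografts, where 23.1% of all miRNAs tested rose, with sums of 5797, 4965 and 9027 RPM in allografts 12, 34 and 56, against 308, 303 and 295 RPM in normal corneas 12, 34 and 56. In isografts 6 of the 7 rose, where 16.7% of all did, with sums between 851 and 1815 RPM. The 4 platelet miRNAs summed to 5087 to 8162 RPM in allografts, 3311 to 8404 in isografts and 2229 to 2517 in normal corneas, and 3 of the 4 rose in each graft group. The 2 endothelial miRNAs, the arms of miR-126a, summed to 2955 to 4874 RPM in allografts, 2095 to 6150 in isografts and 346 to 857 in normal corneas, and both rose in each graft group. The 3 platelet miRNAs that rose were these arms and miR-223-3p, a miRNA of myeloid cells that is also in the white blood cell list. The only platelet miRNA in no other list, miR-191a-5p, stood at 0.20 in allografts (limma adjusted p = 0.652) and -0.15 in isografts (adjusted p = 0.847). Of the 7 in allografts, miR-142-3p had the largest log2 fold change, 7.13, and miR-342-3p the smallest, 2.45. The medians of these 3 lists in both graft groups against normal corneas stayed above 0 under each scaling tried. In RPM allograft 34 had the lowest sum of the allografts in all 3 lists, and isograft 12 that of the isografts. Both also had the lowest share of listed miRNAs in their group, 26.4% and 36.8% of reads, which lowers their RPM values. The order of these sums was not tested under other scalings. The part of white blood cells, platelets and endothelium in the red cell values was not tested.

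Liver is the main known source of miR-122, and striated muscle is a further source of miR-486. Of 7 other liver miRNAs miR-802-5p had 0 reads in every library, and the 2 abundant enough to test, miR-192-5p at -1.28 and miR-194-5p at -1.24, both fell in allografts, where 24.2% of all miRNAs tested fell, and did not pass in isografts. Scaled to the listed miRNAs 1 of the 2 fell in allografts, where 44 of all 281 fell. With the median of ratios, edgeR or DESeq2 both passed in isografts as lower, where 49, 47 and 51 of all 281 did. The list summed to 172 to 306 RPM in allografts, 207 to 371 in isografts and 421 to 562 in normal corneas. Allograft 34 was lowest on the RPM scale, at 172, and it also had the lowest share of listed miRNAs, 26.4%. miR-215, a low member of the list, went the other way in allograft 34, at 10.9 RPM against 1.27 and 1.73 RPM in allografts 12 and 56, and over all libraries it stood at 0.61 in allografts against normal corneas in the limma fit without a filter (adjusted p = 0.396). Of 9 striated muscle miRNAs, miR-208a-3p and miR-208b-3p had 0 reads in every library, and 3 were tested. All 3 fell in allografts, miR-1b at -3.23 (SE 0.38), miR-499-5p at -1.42 (SE 0.45) and miR-133a-3p at -1.34 (SE 0.37). In isografts miR-1b and miR-133a-3p fell, where 4.63% of all miRNAs tested fell. Scaled to the listed miRNAs 1 of the 3 fell in allografts. Summed, the 9 were at 39.0, 45.2 and 53.0 RPM in allografts 12, 34 and 56. On the RPM scale allograft 34 was thus not high for the list. All listed miRNAs held 33.9%, 26.4% and 46.3% of reads in these libraries, and a low share lowers RPM values. The order was not tested under other scalings. In RPM the most abundant muscle miRNAs were lowest in allograft 34. There miR-1b was at 22.2 RPM, against 24.8 and 23.4 RPM in allografts 12 and 56, and miR-499-5p at 10.5 RPM, against 12.1 and 27.3 RPM. Of the low members, 2 that were high in allograft 34 are given here, picked after their values were seen. miR-206-3p, a miRNA of skeletal muscle, was at 6.09 RPM in allograft 34, against 0.364 RPM in both other allografts, and miR-133a-3p was at 5.18 RPM in allograft 34, against 1.18 and 1.73 RPM in allografts 12 and 56. Their part in the miR-486 level of allograft 34 was not tested.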

How the data were processed

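Per the labels' protocols, Trizol was used for extraction and the Illumina TruSeq small RNA kit for libraries, starting with 1 ug of RNA. The build rn6 and the tools BWA and bcl2fastq were used, per the submitters' processing notes. Versions, trimming, the source of miRNA names and the handling of reads matching several miRNAs: not given in the sources used here. The deposited table holds RPM computed by the authors, for 765 miRNAs in 9 columns, each matched to a library by its title. Low RPM values were multiples of a step, 1 per library, and dividing by it gave whole reads for 100% of values within 0.1 read. Groups came from the tissue labels.

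The filter required 5 RPM or more in at least 3 libraries and left 281 of 765 miRNAs. limma 3.58.1 (R 4.3.3), with its variance prior following the mean level, was fitted to log2(RPM + 1) in all 9 libraries, with 6 residual degrees of freedom, Benjamini-Hochberg adjustment over the 281 and a threshold of 0.05. Fold changes on this scale understate the change of low miRNAs. Exact permutation tests used all 280 partitions into 3 groups of 3 (scipy 1.17.1 for intervals). Count tests on the recovered reads called 193, 114 and 163 miRNAs (edgeR 4.0.16) or 195, 119 and 171 (DESeq2 1.42.0) for allografts against normal corneas, isografts against normal corneas and allografts against isografts. Other settings were pseudocounts of 0.5 and 5, no filter or one at 50 RPM, 3 other scalings, other variance estimates, the title number as a block, and libraries left out. Only counting error enters the intervals and floors, and PCR reads with no molecular identifiers are not independent molecules.

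The miRNAs followed, the cell type lists and the tests were chosen with earlier results of these data known. The text names the 5 miRNAs, other arms of their hairpins, the fixed lists, the 5 miRNAs most like each, and the 10 with the largest spread. The numbers in the titles were not used to pair the samples in the main fit. Deviations of same-numbered libraries correlated between -0.51 and 0.56, over 0.1 in 2 of 9 pairs. Those of other-numbered libraries correlated between -0.72 and 0.60, over 0.1 in 8 of 18. Deviations of 3 libraries from their mean are tied to each other, so these values cannot exclude a pairing.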

Additional observations from a re-analysis of the deposited data

How the results depend on the processing

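Against normal corneas miR-451-5p and miR-122-5p had a negative log2 fold change in all 23 other settings, but its size changed. In allografts it ran from -4.19 to -0.76 for miR-451-5p (-0.78 in edgeR and -0.76 in DESeq2, beside -2.61) and from -4.81 to -1.99 for miR-122-5p (-2.03 and -1.99, beside -3.48). In isografts it ran from -3.98 to -1.52 for miR-451-5p (-1.56 and -1.52, beside -2.73) and from -2.84 to -0.11 for miR-122-5p. In allografts miR-451-5p passed in 14, did not pass in 8 and had no p-value in 1 (adjusted p up to 0.673, in edgeR). There miR-122-5p passed in 17 and not in 6 (up to 0.289, in DESeq2). In isografts miR-451-5p passed in 13, not in 9, with none in 1 (up to 0.460, in edgeR). miR-486 passed in 7 settings in allografts and 8 in isografts, and miR-122-5p in 6 in isografts. Between allografts and isografts miR-122-5p passed in 5, miR-486 in 3 and miR-451-5p in 1. Settings that reversed a sign were edgeR and DESeq2 for miR-486 in allografts against normal corneas (1.58 and 1.60), and, between allografts and isografts, RPM without miR-184 for miR-451-5p (-0.016) and both high grafts left out (-0.21 for miR-451-5p, -0.055 for miR-486). The cause was not tested. For miR-486 the mean RPM was 325 in allografts and 148 in normal corneas, while the mean log2(RPM + 1) was 5.93 and 6.98. With 1 library left out, values between allografts and isografts ran from -1.46 to 1.37 for miR-451-5p and from -0.99 to 2.01 for miR-486.

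Counts of calls over all miRNAs were 133 for allografts against normal corneas, 60 for isografts against normal corneas and 97 for allografts against isografts. With 1 library left out they ran from 101 to 164, 42 to 80 and 52 to 147. A filter at 50 RPM, with 152 miRNAs tested, gave 63, 30 and 44. The last 2 comparisons gave 115 and 168 with the median of ratios, 114 and 163 with edgeR, and 119 and 171 with DESeq2, and isografts against normal corneas gave 122 when scaled to the listed miRNAs. Scalings moved the median of all miRNAs in allografts against normal corneas from -0.14 to -0.02, -0.56 (without miR-184, 51 higher and 105 lower) and 0.54 (listed miRNAs, 142 higher and 44 lower, where RPM gave 65 and 68). With the title number as a replicate block, 143, 66 and 112 miRNAs passed, but the samples share only a number, and not every library correlated best with its own number. The log2 ratio of miR-486 to miR-451-5p in allografts over isografts was 0.90, and 0.20 without both high grafts.

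Depth limits the miR-144 arms, at most 12 reads in a library.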

Other observations

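Allograft 34 was set against the higher of the other 2 allografts for the 309 miRNAs that reached 5 RPM in any library, a comparison of single libraries chosen after the values were seen and with no test. There were 5 more than 4-fold higher in allograft 34. They were miR-486 at 61.9-fold, miR-451-5p at 31.5-fold, miR-122-5p at 27.7-fold, the skeletal muscle miRNA miR-206-3p at 16.7-fold (67 reads, against 4 in each other allograft) and miR-215, a relative of miR-192 that is on the liver list and is also made in gut and kidney, at 6.32-fold. miR-215 was at 10.9 RPM in allograft 34, against 1.27 and 1.73 RPM in allografts 12 and 56, and it lay between 1.32 and 2.82 RPM in the isografts and between 1.45 and 2.0 RPM in the normal corneas. In addition, miR-133a-3p, was over 2-fold higher, at 3.00-fold. Of these, miR-206-3p and miR-215 were below the limit for testing.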
